A study of Mus musculus with 11 samples.

Results

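The genes described here are 10 glycosyltransferases that build the sugar chains of mucins: Galnt12, C1galt1, Gcnt1, Gcnt3, Gcnt4, B3gnt6, A4gnt, Fut2, St6galnac1 and St8sia6. They were taken by symbol from the 34866 genes of a bulk RNA sequencing table of mouse gastric corpus mucosa, the acid-secreting body of the stomach. All 10 were found in the table, and 8 of them were among the 14889 genes that passed the filter on low counts. St8sia6 was chosen by its CPM values, which were high in the GIF/ATP4B-DTR samples, and the other 9 by name. Its levels are therefore given as a description, with no test.

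The 11 samples fall into 4 genotypes, with 2 wild-type control samples (labelled WT) and 3 samples of each engineered line: ATP4B-DTR, GIF-DTR, and the double line GIF/ATP4B-DTR. DTR stands for the diphtheria toxin receptor, which makes a mouse cell sensitive to diphtheria toxin. Atp4b encodes a subunit of the proton pump of the acid-secreting parietal cells, and Gif encodes intrinsic factor, which mouse chief cells secrete with pepsinogen. The lines were engineered to ablate parietal cells, chief cells or both. The form of the alleles, strain, toxin treatment, time of collection, age and sex of the mice are not given in the sources used here. Titles of the line samples carry distinct numbers whose meaning is not stated, and the labels do not say that the samples of a group came from separate animals. Each p-value below measures the spread between these samples, which may in part be technical.

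Mucins carry dense O-linked sugar chains that give gastric mucus its viscosity and its resistance to digestion. A chain begins with a GalNAc placed on serine or threonine by a polypeptide GalNAc transferase, is extended into a core structure, and is then capped with fucose, sialic acid, galactose or GlcNAc. In the stomach, surface pit cells make Muc5ac, which carries fucosylated chains built with Fut2, while the mucous neck cells and the glands make Muc6, whose chains end in a GlcNAc added by A4gnt.

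Library totals were between 20.7 and 27.9 M counts (M, mega), and a level of 3 counts corresponded to between 0.107 and 0.166 CPM (counts per M, scaled for composition). Corpus markers were present in every sample, and the genes the lines are named for were lower in those lines: Atp4b was at 4365 to 4786 CPM in control, 475 to 683 in ATP4B-DTR and 158 to 468 in the double line, and Gif was at 702 to 2303 CPM in control, 65.5 to 196 in GIF-DTR and 72.3 to 218 in the double line. Parietal cell markers were also lower in GIF-DTR, where edgeR called 4 of 10 lower and 0 higher (40%, against 16.8% of all genes). Atp4a, the other subunit of the pump, was at 11129 to 11690 CPM in control and 4788 to 5555 in GIF-DTR, a log2 change of −1.13 ± 0.32 (edgeR adjusted p = 0.0338), and Atp4b was below both controls, at 2136 to 3470 CPM, and not called (−0.71 ± 0.37, 0.224). In ATP4B-DTR, Gif was at 332 to 824 CPM, which overlapped control (−1.24 ± 0.70, edgeR adjusted p = 0.245). Y-linked genes were expressed in both controls, 1 ATP4B-DTR sample and all 3 samples of the double line, and were absent from 2 ATP4B-DTR and all 3 GIF-DTR samples. The ATP4B-DTR group thus came from at least 2 animals. A difference between GIF-DTR and either control or the double line therefore cannot be told apart from a difference in Y-linked expression. Within a group, Y-linked expression was present in some samples and absent from others only in ATP4B-DTR. A covariate for it, used below, thus rests mainly on replicate 1 of that group against replicates 2 and 3. The controls differed in markers of other cells: the summed smooth muscle markers were 359 CPM in control 1 and 2135 in control 2, and the summed pit cell markers 128560 and 80979 CPM.

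Per length of transcript, the 10 genes spanned a wide range of levels. Gcnt3 stood highest at 102 ± 20.3 CPM per kb of exon (mean ± SD over the 11 samples), followed by C1galt1 at 48.2 ± 8.61. Galnt12, Fut2 and A4gnt were close to each other on this scale, at 34.6 ± 4.78, 31.7 ± 6.77 and 30.6 ± 14.0 CPM per kb, within their spread. St8sia6 followed at 9.90 ± 5.37, Gcnt1 at 1.52 ± 0.61 and Gcnt4 at 0.541 ± 0.128 CPM per kb. The remaining pair was hardly detected. B3gnt6, the core 3 synthase of the colon and other mucosae (ENSMUSG00000074004.3, chr7:98192417-98199481, minus strand, GRCm38), had 1 to 8 counts per sample and 39 in all, at or near the floor. St6galnac1, which caps the first GalNAc with sialic acid to give the sialyl-Tn antigen (ENSMUSG00000009588.9, chr11:116765025-116775507, minus strand), had 0 counts in each of the 11 libraries, which allows a level of up to 0.107 to 0.166 CPM depending on the library. Neither was tested, and no fold is given for them. These limits cover counting error only.

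**Figure D1:**
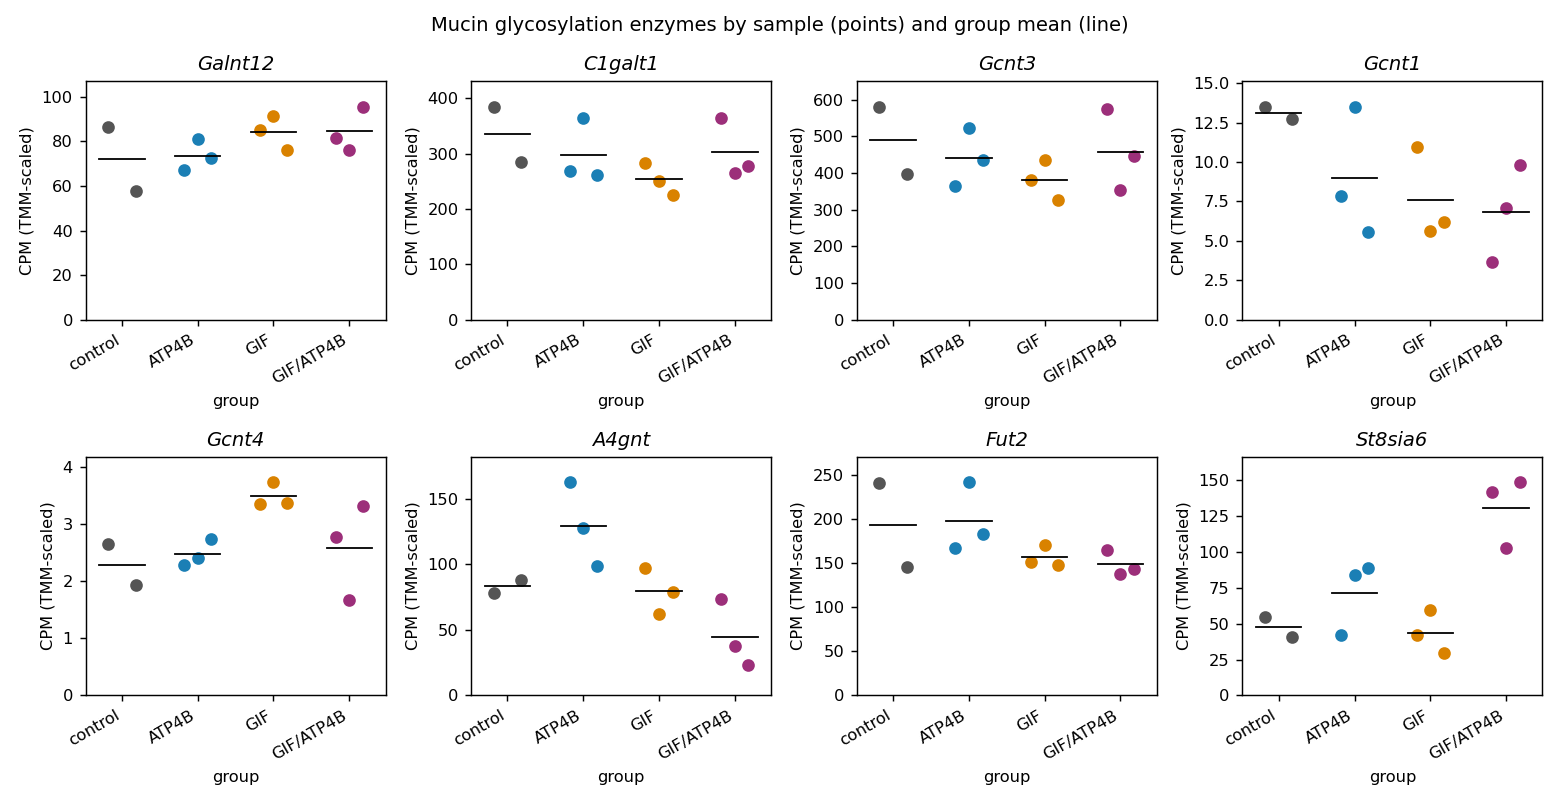
Levels of the 8 enzymes that passed the filter, in CPM (vertical axes, linear from 0), by genotype (horizontal axes); points are samples and lines are group means. A4gnt is highest in ATP4B-DTR and lowest in the double line, St8sia6 is highest in the double line, and the other genes overlap between most groups.

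Against control, no tested enzyme changed past the threshold in any of the 3 lines. Of the 7 members tested (St8sia6 apart), 0 passed for ATP4B-DTR, 0 for GIF-DTR and 0 for the double line (edgeR quasi-likelihood, adjusted p under 0.05 after Benjamini-Hochberg; below, "called"), where 21.6%, 16.8% and 33.6% of all 14889 genes tested were called. At an unadjusted p under 0.05 the counts were also 0, 0 and 0, against 34.8%, 31.4% and 44.5% of all genes. DESeq2, run as an alternative, called 0, 0 and 1, the last being A4gnt, against 26.7%, 22.6% and 38.5% of all genes. The median log2 fold change of the 7 was 0.03 for ATP4B-DTR, −0.30 for GIF-DTR and −0.15 for the double line, against −0.01, −0.01 and −0.04 over all genes. The 95% interval lay within a 2-fold change in either direction for 5 of the 7 in each line, and reached past it for Gcnt1 in every line, for A4gnt in ATP4B-DTR and the double line, and for Gcnt4 in GIF-DTR. The 3 comparisons share the same 2 control samples and are not independent of each other.

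**Figure D2:**
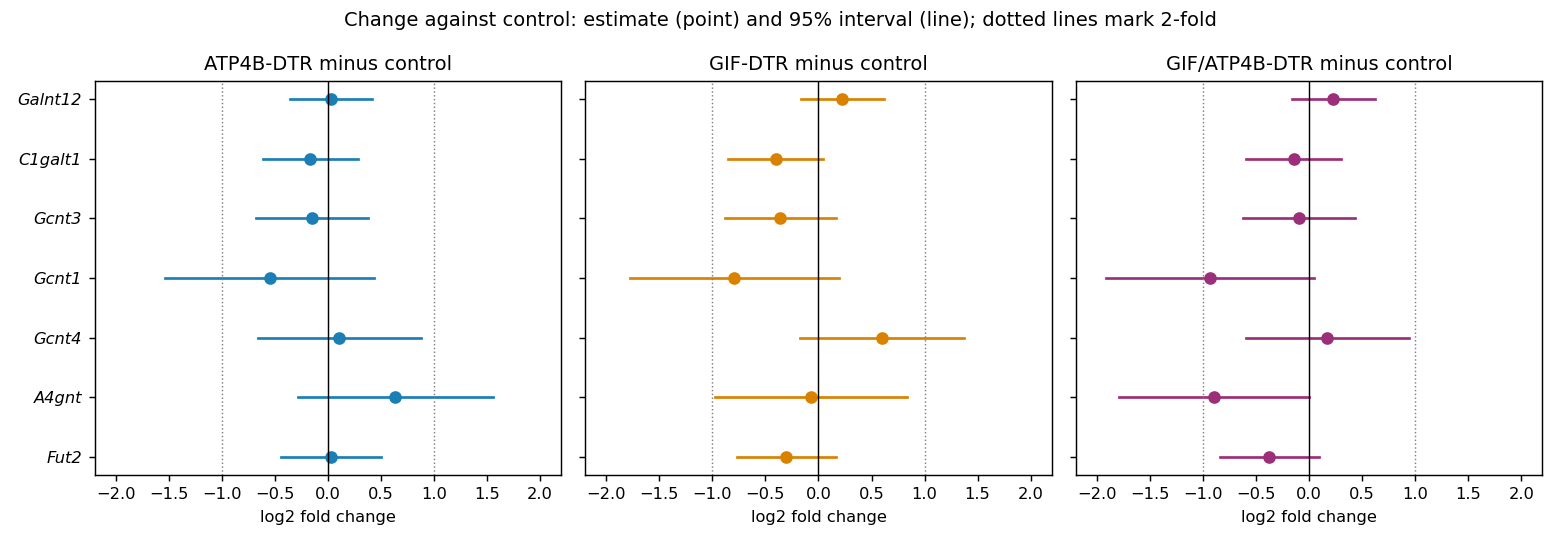
Log2 fold change of the 7 tested enzymes against control (horizontal axes; points, estimates; lines, 95% intervals from the edgeR fit) in each line. Every interval reaches 0, and those of Gcnt1 and A4gnt are the widest; dotted lines mark a 2-fold change.

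Galnt12, one of the polypeptide GalNAc transferases that start a chain (ENSMUSG00000039774.12, chr4:47091909-47123070, plus strand, overlapping the gene model Gm12424), varied least of the tested members. In CPM, and in order of replicate here and below, the controls had 86.6 and 57.6, the ATP4B-DTR samples 67.0, 81.0 and 72.4, the GIF-DTR samples 85.1, 91.5 and 76.2, and the double line 81.5, 76.4 and 95.7. The groups overlapped throughout, and the highest sample was 1.66-fold above the lowest. The log2 differences from control, with their SE, were 0.03 ± 0.18 for ATP4B-DTR, 0.22 ± 0.18 for GIF-DTR and 0.23 ± 0.18 for the double line, with edgeR adjusted p-values of 0.928, 0.432 and 0.34. Without control 1, the difference of the double line became 0.56 and passed the edgeR test (adjusted p = 0.0469). Over all samples left out in turn, that difference ran from −0.038 to 0.56, so its direction was not kept throughout.

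C1galt1 adds galactose to the first GalNAc and so makes core 1, the base of most gastric chains (ENSMUSG00000042460.5, chr6:7844842-7875687, plus strand, overlapping the gene models Gm43961 and Gm43962). The controls had 385 and 284 CPM, the ATP4B-DTR samples 268, 364 and 262, the GIF-DTR samples 283, 251 and 226, and the double line 364, 265 and 278. All 3 GIF-DTR samples lay below both controls, and the other lines overlapped control. The log2 differences were −0.17 ± 0.20, −0.40 ± 0.20 and −0.15 ± 0.21 in ATP4B-DTR, GIF-DTR and the double line (edgeR adjusted p = 0.6, 0.205 and 0.603).

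Core 2 enzymes add a GlcNAc branch to core 1. Of the 3 in the set, Gcnt3, the mucin-type enzyme that also makes core 4 (ENSMUSG00000032226.5, chr9:70031496-70038088, minus strand), supplied nearly all transcripts: its share of the summed Gcnt1, Gcnt3 and Gcnt4 level per kb was between 97.2% and 99.1% in the 11 samples. Gcnt3 levels were 581 and 397 CPM for control, 364, 521 and 436 for ATP4B-DTR, 380, 436 and 326 for GIF-DTR, and 575, 352 and 444.9 for the double line. Each line overlapped control, and the log2 differences of −0.15 ± 0.24, −0.36 ± 0.24 and −0.10 ± 0.24 missed the edgeR test (adjusted p = 0.685, 0.338 and 0.775).

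Gcnt1, the widely expressed core 2 enzyme (ENSMUSG00000038843.17 in the counts, ENSMUSG00000038843.18 in GENCODE, chr19:17326141-17372844, minus strand), was far less abundant. The controls had 13.5 and 12.8 CPM, the ATP4B-DTR samples 7.82, 13.5 and 5.55, the GIF-DTR samples 10.9, 5.62 and 6.19, and the double line 3.63, 7.10 and 9.83. All samples of GIF-DTR and of the double line lay below both controls, while ATP4B-DTR 2 was level with control 1. The log2 differences of −0.55 ± 0.45, −0.79 ± 0.45 and −0.93 ± 0.45 did not pass (edgeR adjusted p = 0.413, 0.255 and 0.129).

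Gcnt4, the least abundant core 2 enzyme (ENSMUSG00000091387.2, chr13:96924689-96950906, plus strand, with Gm48597 antisense to it), was present at a low level of 35 to 95 counts per sample. Levels were 2.65 and 1.94 CPM for control, 2.28, 2.41 and 2.73 for ATP4B-DTR, 3.36, 3.74 and 3.37 for GIF-DTR, and 2.78, 1.67 and 3.31 for the double line. The 3 GIF-DTR samples were above every other sample. The log2 differences from control were 0.11 ± 0.35, 0.60 ± 0.35 and 0.17 ± 0.35 (edgeR adjusted p = 0.854, 0.277 and 0.726).

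A4gnt, which adds the terminal GlcNAc of gland mucin (ENSMUSG00000037953.7, chr9:99612502-99622367, plus strand), varied most of the tested members, with a 6.97-fold span over the samples. The controls had 78.3 and 88.1 CPM, the ATP4B-DTR samples 162, 127 and 98.3, the GIF-DTR samples 96.9, 61.7 and 79.1, and the double line 73.2, 37.7 and 23.3. All ATP4B-DTR samples were above both controls, all samples of the double line were below both, and GIF-DTR straddled the controls. In order of the group means the double line (44.8 ± 25.7 CPM, SD, n = 3) was lowest, then GIF-DTR (79.2 ± 17.6, n = 3) and control (83.2 ± 6.99, n = 2), which did not differ beyond their spread, then ATP4B-DTR (129 ± 32.1, n = 3).

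The log2 differences of A4gnt from control were 0.64 ± 0.41 for ATP4B-DTR, −0.07 ± 0.40 for GIF-DTR and −0.90 ± 0.40 for the double line, with edgeR adjusted p-values of 0.307, 0.932 and 0.113. One sample of the double line decided that call. Without the double line's replicate 1, which had 73.2 CPM, the difference became −1.45 with an edgeR adjusted p of 0.00496. DESeq2 on all samples gave −0.91 with an adjusted p of 0.0448, and over all alternatives the edgeR and DESeq2 adjusted p ranged from 0.00496 to 0.32. In a bulk sample, fewer cells that make a transcript and less transcript per cell cannot be told apart.

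Muc6, the mucin that carries the A4gnt product (ENSMUSG00000048191.15, chr7:141633456-141655319, minus strand), fell in all 3 lines. Its levels were 384 and 333 CPM for control, 27.98, 90.5 and 77.0 for ATP4B-DTR, 39.4, 19.7 and 27.1 for GIF-DTR, and 5.57, 8.76 and 15.2 for the double line. Every sample of the lines was below both controls, and every sample of the double line was below all others. The log2 changes of Muc6 were −2.46 ± 0.52, −3.64 ± 0.53 and −5.18 ± 0.57, with edgeR adjusted p-values of 0.0102, 0.00352 and 0.000267. With the Y-linked level as a covariate the changes in ATP4B-DTR and GIF-DTR became −3.63 and −5.21. The summed chief cell markers were lower in every line as well, at 86208 to 192730 CPM in control and 17306 to 62284 in ATP4B-DTR. They were at 5361 to 22853 CPM in GIF-DTR and 3162 to 12705 in the double line, and their part in the Muc6 changes was not tested.

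The ratio of A4gnt to Muc6 CPM was 0.204 to 0.265 in control, 1.28 to 5.80 in ATP4B-DTR, 2.46 to 3.13 in GIF-DTR and 1.53 to 13.2 in the double line, so each sample of the lines was above both controls. The difference between the 2 genes was not tested. Tff2, the trefoil peptide secreted with Muc6 by neck cells, was at 723 to 1138 CPM in control, 597 to 1361 in ATP4B-DTR, 860 to 1723 in GIF-DTR and 863 to 1250 in the double line. The groups overlapped for Tff2, with log2 differences of −0.03 ± 0.37, 0.46 ± 0.38 and 0.19 ± 0.37 (edgeR adjusted p = 0.967, 0.455 and 0.717).

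**Figure D3:**
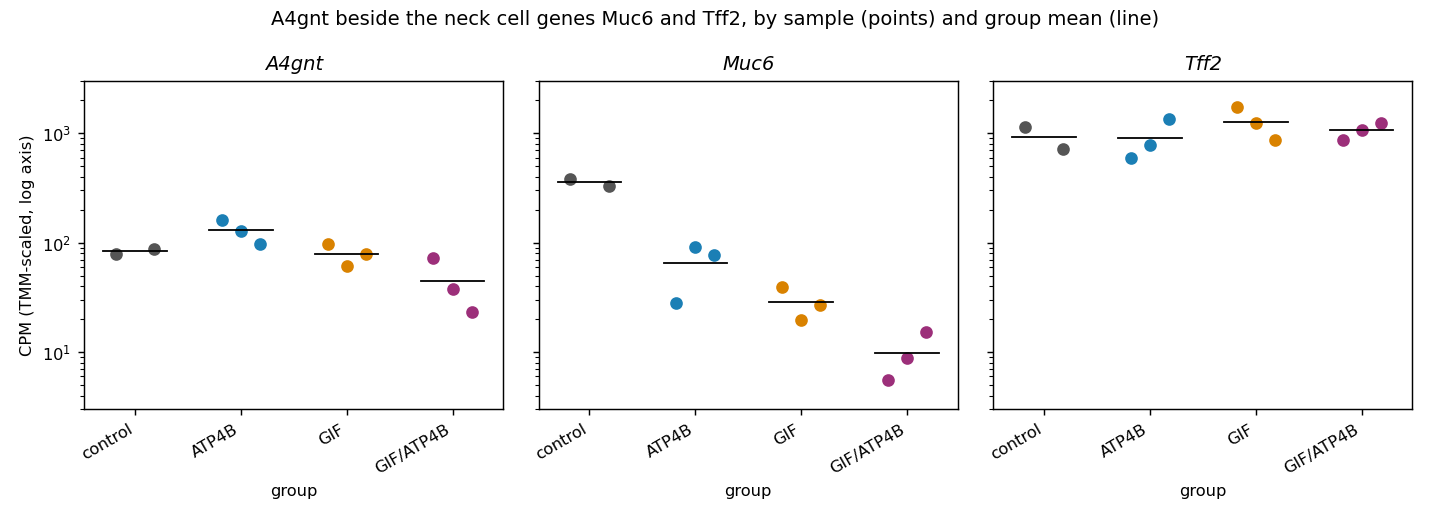
Levels of A4gnt, Muc6 and Tff2 in CPM on a log axis, by genotype; points are samples and lines are group means. Muc6 drops from 333 to 384 CPM in control to 5.57 to 15.2 CPM in the double line, while A4gnt stays between 23.3 and 162 CPM and Tff2 between 597 and 1723 CPM in all samples.

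The RefSeq promoter windows of this enzyme and of Muc6, the mucin it acts on and whose transcript fell, are printed here as RefSeq gives them for GRCm38.p6. Each window runs from 250 bases before to 50 bases after the RefSeq start site, 5′ to 3′ on the strand of the gene, with matches to AGATAA on either strand in capitals. Transcription factors of the GATA family bind this motif. The RefSeq start site of A4gnt is that of the GENCODE gene model, and that of Muc6 lies 74 bases before the model, so that the whole Muc6 window is outside it.
A4gnt, chr9:99612252-99612551, plus strand: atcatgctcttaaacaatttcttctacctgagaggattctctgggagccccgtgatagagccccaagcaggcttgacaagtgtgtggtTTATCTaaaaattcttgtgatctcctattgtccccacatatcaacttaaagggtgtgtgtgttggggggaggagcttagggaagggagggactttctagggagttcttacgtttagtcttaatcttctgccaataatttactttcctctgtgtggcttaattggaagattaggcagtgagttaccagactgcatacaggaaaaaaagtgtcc
Muc6, chr7:141655344-141655643, minus strand: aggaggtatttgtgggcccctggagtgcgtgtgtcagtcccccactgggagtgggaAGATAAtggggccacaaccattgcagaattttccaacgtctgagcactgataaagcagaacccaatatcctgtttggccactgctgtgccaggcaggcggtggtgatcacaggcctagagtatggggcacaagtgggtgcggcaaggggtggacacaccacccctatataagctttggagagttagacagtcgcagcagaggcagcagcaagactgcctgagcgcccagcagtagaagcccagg
A4gnt holds 1 match, on the opposite strand (printed as TTATCT) at position 89 of the window, and Muc6 holds 1 match on its own strand at position 57. Of the 32851 mouse promoter windows of the same length, 11.2% hold AGATAA on either strand. The exact letters TATAAA of a TATA box were searched in the same way and had 0 matches in both windows, against 13.6% of all windows. Variants of it were not searched, and the Muc6 window holds the related letters tatataag. The 0 matches therefore do not show that a TATA box is absent. An E-box (CAGCTG) had 0 matches, against 16.3% of all windows. A forkhead sequence (TGTTTAC) had 0 matches, against 3.65%. None of these motifs overlaps another in the windows shown. The windows differ in base composition, with 43.7% G and C in A4gnt and 56.7% in Muc6, where the median of all windows is 52.7%. RefSeq promoters were matched for 5 of the 10 members: A4gnt, St8sia6, Gcnt1, Gcnt4 and C1galt1. The St8sia6 window is not shown, because its RefSeq start site lies 544 bases inside the GENCODE gene model and all 300 bases of the window fall within that model.

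Fut2, which adds the fucose of the H blood group structure to surface mucus (ENSMUSG00000055978.5, chr7:45648591-45666394, minus strand), had 241 and 145 CPM as control levels. The ATP4B-DTR samples had 167, 242 and 183, the GIF-DTR samples 151, 171 and 148, and the double line 166, 138 and 144. Samples of each line overlapped the range of the controls, and the values were fractional in 4 of the 11 samples, as when reads are divided between genes with shared sequence. The log2 differences from control were 0.03 ± 0.21, −0.30 ± 0.21 and −0.37 ± 0.21 (edgeR adjusted p = 0.928, 0.372 and 0.198). Without control 2, the difference of the double line became −0.70 and passed (edgeR adjusted p = 0.0394). With each sample left out in turn, that difference ran from −0.70 to 0.0402, so its direction also depended on single samples.

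The 2 controls were apart from each other in several of the enzymes. Fut2, Gcnt3, C1galt1 and Galnt12 were each higher in control 1 than in control 2, as were the mucin Muc5ac of the pit cells (13837 against 7818 CPM) and the summed pit cell markers. The part of this difference in the comparisons with control was not tested beyond leaving out each control. The Muc5ac level was 1624, 5277 and 5679 CPM for ATP4B-DTR, 3875, 6779 and 4653 for GIF-DTR, and 2507, 2834 and 4060 for the double line. It fell in the double line by 1.79 ± 0.47 on the log2 scale (edgeR adjusted p = 0.0142). Without control 1 that call was lost (edgeR adjusted p = 0.1).

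St8sia6 attaches a further sialic acid to chains that already carry one, on O-linked sugars in particular (ENSMUSG00000003418.11, chr2:13651021-13794064, minus strand, with Gm37126 antisense to it). The controls had 54.3 and 40.9 CPM, the ATP4B-DTR samples 42.0, 83.8 and 88.8, the GIF-DTR samples 42.3, 59.4 and 29.7, and the double line 142, 103 and 149. The 3 samples of the double line were above the 8 others, a pattern that 435 of 14889 genes (2.92%) showed and by which the gene was picked. ATP4B-DTR 2 and 3 were above both controls while ATP4B-DTR 1 lay between them, and GIF-DTR overlapped control. As a description, the log2 differences from control were 0.59 for ATP4B-DTR, −0.12 for GIF-DTR and 1.46 for the double line, and the double line was 0.87 above ATP4B-DTR and 1.58 above GIF-DTR. With the Y-linked level as a covariate the differences from control became −0.08 for ATP4B-DTR and −1.03 for GIF-DTR, and the double line stood 1.59 above ATP4B-DTR and 2.54 above GIF-DTR. These values rest mainly on ATP4B-DTR 1 (42.0 CPM, with Y-linked expression) against ATP4B-DTR 2 and 3 (83.8 and 88.8 CPM, without it). The difference of the double line from control ran from 1.27 to 1.68 over all alternatives. They reuse the values by which the gene was picked, so the range lends no support to its rise. GIF-DTR was 0.71 below ATP4B-DTR on the log2 scale, and the samples of that pair of lines overlapped.

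Between the lines, no tested member passed the edgeR threshold with all samples. Of the 7 members without St8sia6, edgeR called 0 between GIF-DTR and ATP4B-DTR, where 0.49% of all genes were called. It called 0 between the double line and ATP4B-DTR (0% of all genes) and 0 between the double line and GIF-DTR (2.53%). At an unadjusted p under 0.05 the counts were 0, 1 (A4gnt) and 1 (A4gnt), against 9.81%, 10.4% and 18% of all genes. DESeq2 called 0, 1 (A4gnt) and 0, against 2.58%, 1.91% and 6.9% of all genes.

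A4gnt carried the largest of these differences among the 7 members. It was lower in the double line than in ATP4B-DTR by 1.53 ± 0.37 on the log2 scale (95% interval −2.36 to −0.70), with no overlap between the samples. Its unadjusted edgeR p was 0.00213 and its adjusted p 0.186. Adjusted p-values over the alternatives ranged from 0.00151 with DESeq2 to 0.453, and without the double line's replicate 1 the difference became −2.09 with an edgeR adjusted p of 0.0397. Against GIF-DTR, A4gnt was lower in the double line by 0.82 ± 0.37 with an edgeR adjusted p of 0.273, and without the double line's replicate 1 by 1.38 with 0.0388.

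Whether the second ablation acted differently in the 2 backgrounds was asked with an interaction: the log2 difference of the double line from ATP4B-DTR, less that of GIF-DTR from control. Of the 7 members, 0 were called by edgeR (0.651% of all genes) and 1, A4gnt, had an unadjusted p under 0.05 (15.6% of all genes). DESeq2 called 0 (5.32% of all genes). The interaction of A4gnt was −1.46 ± 0.55 on the log2 scale (edgeR unadjusted p = 0.025, adjusted p = 0.241). For the other 6 it lay between −0.54 and 0.42.

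Counting only whether the samples of a group overlapped control, 1 of the 7 members (A4gnt) was apart in ATP4B-DTR, 3 (Gcnt1, Gcnt4 and C1galt1) in GIF-DTR and 2 (A4gnt and Gcnt1) in the double line. Over all genes tested, 48.5%, 48% and 56.3% were apart in the same way, so the members' counts were not above that background in any line. Between GIF-DTR and ATP4B-DTR, 2 of 7 (A4gnt and Gcnt4) were apart, against 16.9% of all genes, between the double line and ATP4B-DTR 2 of 7 (A4gnt and Fut2), against 15.1%, and between the double line and GIF-DTR 1 of 7 (Gcnt4), against 26.4%.

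The other genes of the 7 pathway lists hold further glycosyltransferases, some of which act on glycolipids, sulfotransferases, nucleotide sugar genes, and mucins and mucus proteins. Of their 125 matched genes 104 were tested, with calls in both directions. Of the 104, edgeR called 21 in ATP4B-DTR (20.2%), of which 9 rose, 14 in GIF-DTR (13.5%), of which 4 rose, and 31 in the double line (29.8%), of which 12 rose. These shares are not above those of all genes, 21.6%, 16.8% and 33.6%. With the Y-linked level as a covariate the counts of ATP4B-DTR and GIF-DTR became 11 and 4. That covariate left 8 of the 21 calls in ATP4B-DTR (B4galnt2, Fut9, St3gal3, St3gal5, St6galnac2, Galk1, Nans and Muc6), 2 of the 14 in GIF-DTR (Galk1 and Muc6) and 30 of the 31 in the double line (all but Galnt11), and changed the direction of none. The other calls in ATP4B-DTR and GIF-DTR named below ended with it, which need not mean a smaller difference. In GIF-DTR the log2 change of A4galt was −1.07 without the covariate and −1.08 with it, and that of B4galnt2 −1.61 and −1.21. Without control 2 the counts of ATP4B-DTR and the double line became 11 and 19, and that of GIF-DTR became 8 without control 1 and 9 without GIF-DTR 3.

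Among the 14 other polypeptide GalNAc transferases tested, 1 rose and 2 fell in ATP4B-DTR, 1 fell in GIF-DTR, and 1 rose and 3 fell in the double line. The shares called, 21.4%, 7.14% and 28.6%, were not above those of all genes (21.6%, 16.8% and 33.6%). Galnt6 fell from 162 and 103 CPM in the controls to 35.5, 45.4 and 50.2 CPM in the double line, a log2 change of −1.60 ± 0.33 (edgeR adjusted p = 0.00397). It also fell in ATP4B-DTR, at −1.35 ± 0.32 (0.0153), a call lost with the Y-linked covariate (0.0792) and without control 1 (0.108). In GIF-DTR the change of −0.90 ± 0.32 was not called (0.0837). Galnt1 rose by 0.42 ± 0.13 in ATP4B-DTR (edgeR adjusted p = 0.0376) and by 0.41 ± 0.13 in the double line (0.0292). Galntl6 fell in ATP4B-DTR (−0.66 ± 0.17, 0.0193) and in GIF-DTR (−0.76 ± 0.17, 0.0136), and differed from control by −0.11 ± 0.17 in the double line (0.633). With the Y-linked covariate its edgeR adjusted p was 0.135 and 0.244 in the single lines, and that of Galnt1 in ATP4B-DTR was 0.086. The Galnt1 calls in ATP4B-DTR and the double line were each lost when any of 5 single samples was left out (edgeR adjusted p up to 0.166 and 0.14), and those of Galntl6 when either control was left out (up to 0.0895 in ATP4B-DTR and 0.0686 in GIF-DTR). Galnt15 fell in the double line (log2 change −2.61 ± 0.79, edgeR adjusted p = 0.0255), where its level of 0.646 to 1.15 CPM overlapped that of control 1 (0.674 CPM) and not that of control 2 (9.48 CPM). Without control 2 its log2 difference became 0.28 (edgeR adjusted p = 0.807), and without control 1 −3.52.

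Of the 16 other genes of core synthesis and chain extension, 1 rose and 1 fell in ATP4B-DTR, 1 fell in GIF-DTR, and 2 rose and 2 fell in the double line. That is 12.5%, 6.25% and 25% called, below the 21.6%, 16.8% and 33.6% of all genes. C1galt1c1 (Cosmc), the chaperone without which the C1galt1 enzyme is lost, rose in the double line by 0.88 ± 0.22 (edgeR adjusted p = 0.0111) from 55.1 and 41.9 CPM to 91.8, 106 and 69.6 CPM. B3gnt8, which extends chains with GlcNAc, fell in ATP4B-DTR and in the double line, at −1.63 ± 0.41 and −2.05 ± 0.41 (edgeR adjusted p = 0.0157 and 0.00297). B4galt1, a galactosyltransferase, fell in GIF-DTR and in the double line, at −0.61 ± 0.18 and −0.70 ± 0.18 (0.0425 and 0.0122), and B3galt6 rose in ATP4B-DTR and in the double line by 0.61 ± 0.19 and 0.70 ± 0.19 (0.0365 and 0.014). With the Y-linked covariate the edgeR adjusted p was 0.165 for B3gnt8 and 0.166 for B3galt6 in ATP4B-DTR, and 0.461 for B4galt1 in GIF-DTR. In the double line the call of C1galt1c1 was lost without control 2 (edgeR adjusted p = 0.109), that of B4galt1 without control 1 (0.123) and that of B3galt6 when either control was left out (up to 0.0904). In ATP4B-DTR that of B3gnt8 was lost without control 2 or ATP4B-DTR 2 (up to 0.0794) and that of B3galt6 when any of 7 single samples was left out (up to 0.166), and in GIF-DTR that of B4galt1 when any of 5 was (up to 0.314).

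The capping enzymes for GlcNAc, GalNAc, galactose and fucose form the list to which A4gnt and Fut2 belong. Of the 12 others tested, 0 rose in edgeR or DESeq2 (1, 0 and 0 at an unadjusted p under 0.05), and 3, 3 and 5 fell in ATP4B-DTR, GIF-DTR and the double line. That is 25%, 25% and 41.7% called, against 21.6%, 16.8% and 33.6% of all genes. The list's median log2 fold change was −0.60, −0.53 and −0.80, against −0.01, −0.01 and −0.04 over all genes. B4galnt2, which adds the GalNAc of the Sda antigen, had 24.9 and 24.6 CPM as control levels, 0.466, 0.263 and 0.414 for ATP4B-DTR, 8.56, 7.59 and 8.17 for GIF-DTR, and 0.121, 0.0428 and 0.0356 for the double line. It fell in all 3 lines, with log2 changes of −6.0 ± 0.31, −1.61 ± 0.25 and −8.44 ± 0.37 (edgeR adjusted p = 2.54e-06, 0.00262 and 4.13e-07). In the double line the level rests on 1 to 3 counts per sample: 5 counts against 998 in control gave a ratio of 0.00265 (exact 95% counting interval 0.000858 to 0.0062). Without the double line's replicate 1 the log2 change there became −9.13.

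Fut9, a fucosyltransferase of Lewis structures, had the same order of group means, with control levels of 82.8 and 73.1 CPM, 12.8, 10.5 and 9.57 for ATP4B-DTR, 44.0, 26.6 and 26.3 for GIF-DTR, and 8.23, 11.03 and 5.77 for the double line. It fell in each line, with log2 changes of −2.83 ± 0.28, −1.27 ± 0.27 and −3.23 ± 0.28 (edgeR adjusted p = 0.0002, 0.0114 and 3.67e-05). A4galt, an enzyme of globo-series glycolipids, fell in each line as well, at −0.82 ± 0.20, −1.07 ± 0.20 and −1.35 ± 0.20 (0.0129, 0.00555 and 0.000509), and B4galnt3 fell in the double line by 1.32 ± 0.42 (0.0371). With the Y-linked covariate the GIF-DTR calls of B4galnt2, Fut9 and A4galt were lost (edgeR adjusted p = 0.231, 0.286 and 0.116), as was that of A4galt in ATP4B-DTR (0.0783). The B4galnt3 call was lost when any of 6 single samples was left out (edgeR adjusted p up to 0.224), that of A4galt in ATP4B-DTR without control 2 (0.094) and that of Fut9 in GIF-DTR without control 1 (0.0628). The summed parietal cell markers (10 of 10 matched, each detected) ran in the same order as B4galnt2 and Fut9, at 18728 to 20302 CPM in control, 4111 to 5890 in ATP4B-DTR, 8897 to 11144 in GIF-DTR and 2012 to 3415 in the double line, and their part in these changes was not tested.

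Of the 15 other sialyltransferases tested, 0 rose in any line in edgeR (1, 0 and 0 at an unadjusted p under 0.05, and as many with DESeq2), and 4, 3 and 5 fell in ATP4B-DTR, GIF-DTR and the double line (26.7%, 20% and 33.3% called, against 21.6%, 16.8% and 33.6% of all genes). The share in the double line was not above that of all genes. The list's median log2 fold change was −0.67, −0.60 and −1.37, against −0.01, −0.01 and −0.04 over all genes. St3gal5, the GM3 ganglioside synthase, fell in all 3 lines, with log2 changes of −1.26 ± 0.16, −0.70 ± 0.16 and −1.80 ± 0.17 (edgeR adjusted p = 0.000754, 0.0164 and 4.02e-05). St3gal6 also fell in all 3, at −0.52 ± 0.14, −1.05 ± 0.14 and −0.85 ± 0.14 (0.0244, 0.00163 and 0.00116). St3gal3 and St6galnac2, which sialylate N- and O-linked chains, fell in ATP4B-DTR, at −1.88 ± 0.35 and −0.67 ± 0.13 (0.00463 and 0.00504), and in the double line, at −1.91 ± 0.35 and −0.68 ± 0.13 (0.00221 and 0.00249). St3gal5 was at 52.0 to 59.9 CPM in control, 30.1 to 39.8 in GIF-DTR, 20.9 to 25.2 in ATP4B-DTR and 13.8 to 18.8 in the double line. That is the order of the summed parietal cell markers given above, which the group means of St3gal3 and St6galnac2 also followed, with samples of ATP4B-DTR and the double line overlapping, and those of St3gal6 did not. The part of those markers was not tested. With the Y-linked covariate the edgeR adjusted p in GIF-DTR was 0.0923 for St3gal5 and 0.054 for St3gal6, and that of St3gal6 in ATP4B-DTR was 0.125. The same calls were lost for St3gal5 in GIF-DTR when any of 3 single samples was left out (edgeR adjusted p up to 0.107) and for St3gal6 in ATP4B-DTR when any of 4 was (up to 0.114).

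Carbohydrate sulfotransferases gave 0 calls among 8 tested in each of the 3 comparisons with control in edgeR, with 1, 0 and 0 at an unadjusted p under 0.05 and 1, 0 and 0 called by DESeq2. Nucleotide sugars are the donors that glycosyltransferases use. Of the 23 tested genes that supply them, 6 rose and 0 fell in ATP4B-DTR, 4 rose and 0 fell in GIF-DTR, and 9 rose and 1 (Gne) fell in the double line, with a list median of 0.31, 0.12 and 0.50. That is 26.1%, 17.4% and 43.5% called, against 21.6%, 16.8% and 33.6% of all genes. DESeq2 called 0, 0 and 1 of them lower, and 0, 3 and 1 were lower at an unadjusted p under 0.05. Nans, which makes sialic acid, rose in all 3 lines by 0.71 ± 0.11, 0.58 ± 0.11 and 0.79 ± 0.11 (edgeR adjusted p = 0.00179, 0.00722 and 0.000448), and Galk1, the galactose kinase, by 1.22 ± 0.17, 0.89 ± 0.17 and 0.92 ± 0.17 (0.00096, 0.00667 and 0.0019). Ugp2, which makes UDP-glucose, rose in ATP4B-DTR by 0.54 ± 0.14 (0.0209) and in the double line by 0.93 ± 0.15 (0.000779), and stood at 0.10 ± 0.14 in GIF-DTR (0.694). With the Y-linked covariate the edgeR adjusted p of Nans in GIF-DTR was 0.0695 and that of Ugp2 in ATP4B-DTR was 0.113. The Nans call was also lost without control 2 (0.0542) and the Ugp2 call without control 2 or ATP4B-DTR 2 (up to 0.173). Uap1l1 rose in the double line by 0.82 ± 0.16 (0.00214). Gne, the first enzyme of sialic acid synthesis, was named because it was the 1 exception and fell by 0.53 ± 0.19 (0.0478). Its call was lost when any of 6 single samples was left out (edgeR adjusted p up to 0.196). The summed proliferation markers (12 of 12 matched, each detected) were also higher in every sample of the lines, at 271 to 374 CPM in control and 657 to 1070 in the lines. So were the summed markers of spasmolytic polypeptide-expressing metaplasia, at 1180 to 1625 CPM in control and 1727 to 4526 in the lines. Of those 11 markers, edgeR called 1 lower in GIF-DTR. The part of either marker set in these changes was not tested.

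Of the 16 mucins and mucus proteins tested, 1 rose and 2 fell in ATP4B-DTR, 2 fell in GIF-DTR and 3 fell in the double line. That is 18.8%, 12.5% and 18.8% called, below the 21.6%, 16.8% and 33.6% of all genes. Beside Muc6 and Muc5ac, the membrane mucin Muc1 fell in all 3 lines, with log2 changes of −0.85 ± 0.19, −0.63 ± 0.19 and −0.63 ± 0.19 (edgeR adjusted p = 0.0098, 0.0434 and 0.0259, and 0.0559 and 0.26 in ATP4B-DTR and GIF-DTR with the Y-linked covariate). The Muc1 call was lost in ATP4B-DTR without control 1 (edgeR adjusted p = 0.1), in GIF-DTR when any of 7 single samples was left out (up to 0.382) and in the double line when any of 3 was (up to 0.29). Clca1, a protein of goblet cell mucus, rose in ATP4B-DTR by 4.49 ± 1.08 (0.0201), with 1822, 3423 and 540 CPM against 127 and 44.1 CPM in the controls, and had an edgeR adjusted p of 0.0542 with the Y-linked covariate. Its call was lost when either control was left out (up to 0.127), and its log2 change became 5.45 without control 1 and 3.79 without ATP4B-DTR 2.

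**Figure D4:**
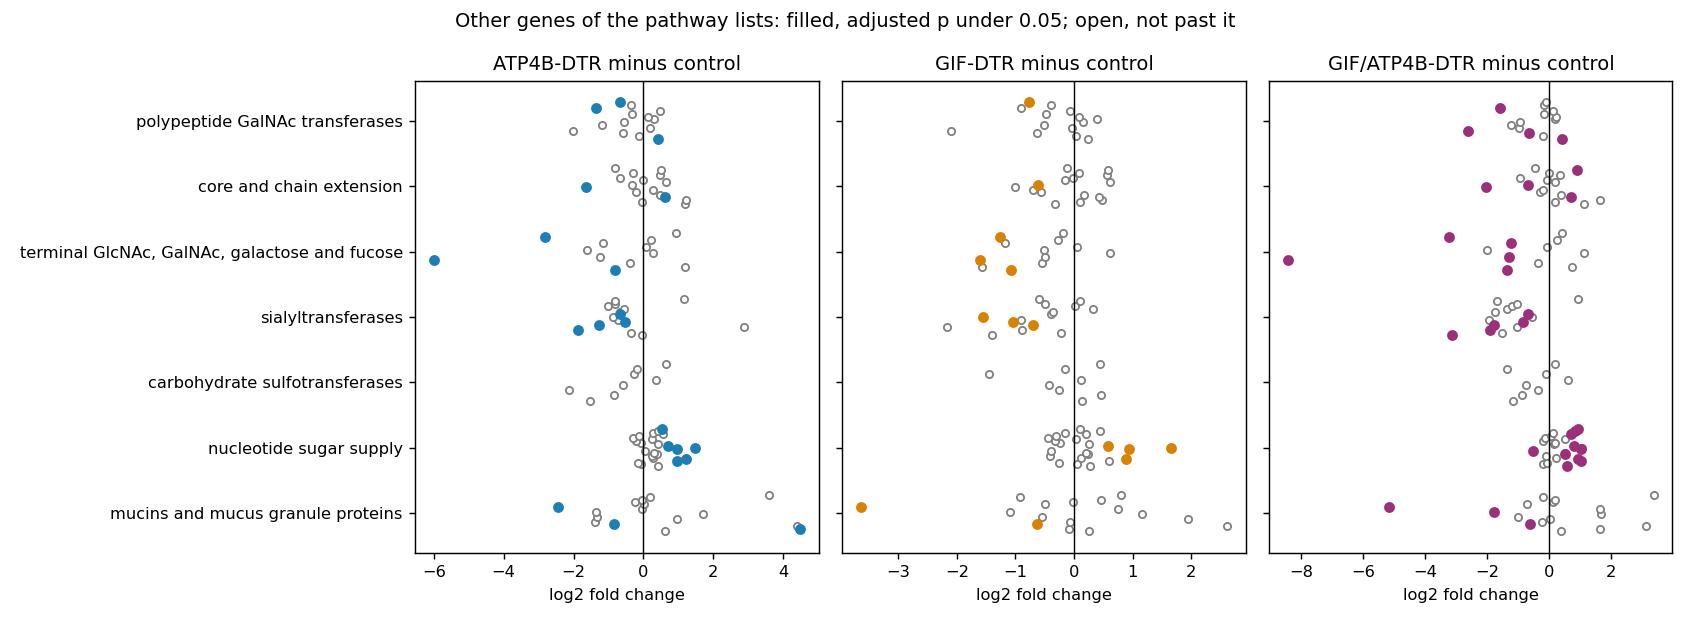
Log2 fold change against control (horizontal axes, with a range of their own in each panel) of the other tested genes of the 7 pathway lists in each line; each point is a gene, filled where the edgeR adjusted p is under 0.05. Filled points of the capping enzymes and sialyltransferases are all below 0, and those of nucleotide sugar supply are above 0 except Gne in the double line.

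The genes whose log2 CPM was most like that of a member over the 11 samples were ranked among 9163 or 9164 genes with a mean of at least 8 CPM, as a description with no test, since these samples share their groups and composition. For A4gnt they were Creb3l4 (Pearson r = 0.92), Eid1 (0.91) and Wwp1 (0.90), and for St8sia6 they were Kbtbd11 (0.93), Ftl1 (0.92) and Aqp3 (0.92). Gcnt3 was most like Arap2 (0.97), Slc22a18 (0.97) and Lrch1 (0.97), C1galt1 most like Pon2 (0.95), Perp (0.95) and Rhoa (0.94), and Galnt12 most like Myd88 (0.92), Snx15 (0.90) and Lsr (0.88). For Fut2 they were Mllt10 (0.90), Abhd12 (0.89) and Rara (0.89), for Gcnt1 Fbln1 (0.88), Plekha3 (0.88) and Gnl3l (0.86), and for Gcnt4 Marcksl1 (0.88), Srebf1 (0.86) and Atg16l1 (0.86). No member was among the 3 genes most like another member. Among the members themselves, the highest r were those of C1galt1 and Gcnt3 (0.88), Fut2 and Gcnt3 (0.71) and C1galt1 and Fut2 (0.69), and the lowest was that of A4gnt and St8sia6 (−0.56). Between A4gnt and the mucin gene Muc6 the r was 0.42.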

How the data were processed

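RNA from gastric corpus mucosa was made into stranded poly(A) libraries, per the labels' protocols. The authors deposited expected counts per gene (estimated counts, 30.7% of nonzero entries fractional) for 11 samples, and the build is mm10, per the submitters' processing notes. The aligner and counter are not given in the sources used here. Gene names matched 34582 of 34866 identifiers (99.2%), and 0 columns were left unused. Positions and exonic lengths came from GENCODE on GRCm38, promoters from RefSeq.

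The expected counts were rounded, since the design had assumed whole counts. Genes were kept by filterByExpr and library composition was corrected with TMM factors (a trimmed mean of log ratios). One quasi-likelihood model of the 4 groups was fitted to all 11 samples with edgeR 4.0.16 (R 4.3.3), with Benjamini-Hochberg adjustment over all 14889 genes. The common biological coefficient of variation was 26.6%. Alternatives were DESeq2 1.42.0 and its size factors, scaling without the 50 most abundant genes, other filters, no robust moderation, only the groups compared, Y-linked level and leaving out each sample. Scripts were tested on simulated data.

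The members and lists were chosen with earlier results of these data known. Named were all members, up to 4 called genes per list with the lowest adjusted p, mucins, targeted genes and the 3 genes most like each member. A planned test of St8sia6 between GIF-DTR and ATP4B-DTR is not reported, because those samples belong to the pattern that chose the gene. Replicate numbers of the lines follow accession order and pair nothing.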

Additional observations from a re-analysis of the deposited data

Results flagged for a closer look

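With all samples, edgeR called no member between 2 lines. DESeq2 called A4gnt between the double line and ATP4B-DTR (adjusted p = 0.00151). Without replicate 1 of the double line, edgeR called A4gnt between that line and ATP4B-DTR (adjusted p = 0.0397) and GIF-DTR (0.0388). Among the pathway genes named beside them, 8 differences between lines or interactions passed edgeR's quasi-likelihood test with Benjamini-Hochberg adjustment, and they are given as values. Over the same 104 pathway genes, DESeq2 called 9 between GIF-DTR and ATP4B-DTR, 6 between the double line and ATP4B-DTR, 9 between the double line and GIF-DTR and 8 interactions, where edgeR called 2, 0, 4 and 2. GIF-DTR exceeded ATP4B-DTR in B4galnt2 by 4.39 ± 0.28 on the log2 scale (edgeR adjusted p = 3.74e-05), with 7.59 to 8.56 against 0.263 to 0.466 CPM. Its difference between the double line and GIF-DTR was −6.83 ± 0.35 (5.77e-06), which rests on 1 to 3 counts per sample of the double line and became −7.52 without that line's replicate 1. Fut9 exceeded its ATP4B-DTR level by 1.56 ± 0.25 in GIF-DTR (edgeR adjusted p = 0.0297), and was lower in the double line than in GIF-DTR, at −1.96 ± 0.26 (0.00243). St3gal5 was lower in the double line than in GIF-DTR, at −1.10 ± 0.15 (edgeR adjusted p = 0.00289). Ugp2 was higher in the double line than in GIF-DTR, at 0.83 ± 0.13 (0.00516). Galntl6 had an interaction of 1.31 ± 0.23 (edgeR adjusted p = 0.0397): it was lower in each single line than in control and was at 21.4 to 25.5 CPM in the double line, against 26.1 to 26.2 in control. Galk1 had an interaction of −1.19 ± 0.22 (0.0479), with log2 changes from control of 1.22, 0.89 and 0.92 in ATP4B-DTR, GIF-DTR and the double line. With the Y-linked level as a covariate, only the 2 differences of B4galnt2 kept their call among these 8 (edgeR adjusted p = 0.000707 and 0.00264). The edgeR adjusted p became 0.0881 for Fut9 between GIF-DTR and ATP4B-DTR (0.105 within samples without Y-linked expression) and 0.167, 0.536 and 0.446 for Fut9, St3gal5 and Ugp2 between the double line and GIF-DTR. For the interactions of Galntl6 and Galk1 it became 0.482 and 0.213. The Fut9 difference between GIF-DTR and ATP4B-DTR also lost its call when any of 5 single samples was left out (edgeR adjusted p up to 0.156), and the 2 interactions when any of 7 and any of 9 was (up to 0.127 and 0.129). The double line and GIF-DTR also differ in Y-linked expression in every sample, and the 2 cannot be told apart there.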

How the results depend on the processing

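Of 938 values of the 7 tested members under alternatives (St8sia6 left out), 879 kept their direction and side of the threshold, 7 crossed the threshold and 52 changed direction, none of them called. Neither other scaling moved the median of all genes by over 0.1 on the log2 scale. The cause of the changes below was not tested.

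The count of members called became 1 with DESeq2 in the double line against control and against ATP4B-DTR. Leaving out a sample gave 0 to 1 members in each comparison of the double line and 0 elsewhere. For pathway genes, leaving out a sample gave 11 to 25 in ATP4B-DTR, 8 to 17 in GIF-DTR and 19 to 31 in the double line against control, and 1 to 7 between GIF-DTR and ATP4B-DTR. The last count was 9 with DESeq2. With at least 10 counts in every sample it was 1 (Fut9), since that filter left B4galnt2 untested. With the Y-linked covariate and within samples without Y-linked expression it was 1 (B4galnt2). With that covariate the count of pathway genes was 11 in ATP4B-DTR and 4 in GIF-DTR against control. Of the pathway calls against control, 8 of 21, 5 of 14 and 15 of 31 in ATP4B-DTR, GIF-DTR and the double line passed whichever sample was left out.

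Log2 differences changed sign with the covariate for Fut2 (−0.16) and Galnt12 (−0.077) in ATP4B-DTR, A4gnt in GIF-DTR (0.43), Fut2 (0.22) and Gcnt1 (0.18) between the double line and GIF-DTR, and the interactions of Fut2 (0.38) and Galnt12 (0.25). C1galt1 between the double line and ATP4B-DTR became −0.000719 with scaling without the 50 most abundant genes. Galnt12 between the double line and GIF-DTR became −0.0196 with that scaling, −0.022 with no filter, −0.019 with at least 10 counts and −0.018 with only the groups compared.

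With a sample left out, values against control ran in ATP4B-DTR from −0.40 to 0.15 for Gcnt3, −0.37 to 0.072 for C1galt1, −0.29 to 0.45 for Fut2, −0.10 to 0.35 for Gcnt4 and −0.24 to 0.35 for Galnt12. In GIF-DTR they ran from −0.62 to 0.11 for Fut2, −0.24 to 0.0804 for A4gnt and −0.041 to 0.55 for Galnt12. In the double line they ran from −0.70 to 0.0402 for Fut2, −0.35 to 0.21 for Gcnt3, −0.35 to 0.092 for C1galt1, −0.045 to 0.42 for Gcnt4 and −0.038 to 0.56 for Galnt12. Between the double line and ATP4B-DTR they ran from −0.14 to 0.21 for Gcnt3, −0.15 to 0.30 for Gcnt4, −0.14 to 0.19 for C1galt1 and −0.74 to 0.038 for Gcnt1. Between the double line and GIF-DTR they ran from −0.094 to 0.073 for Galnt12 and −0.50 to 0.22 for Gcnt1, and for Gcnt1 between GIF-DTR and ATP4B-DTR from −0.60 to 0.18. Interactions ran from −0.52 to 0.22 for Fut2 and −0.35 to 0.24 for Galnt12.

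No paired analysis was possible because the replicate numbers of the lines follow accession order. With 2 controls and 3 samples per line, changes under 2-fold of Gcnt1 and A4gnt are hard to detect, and depth limits B3gnt6, Gcnt4 and St6galnac1.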

Other observations

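Some genes of the mucus and sialylation lists were high in single samples of a group; they were chosen after their values were seen and are given as values. St3gal4, a sialyltransferase, stood at 111 and 172 CPM in ATP4B-DTR 1 and 2 and at 4.35 CPM in ATP4B-DTR 3, where the other 8 samples lay between 1.73 and 14.6 CPM. Clca1 was lowest of the ATP4B-DTR samples in that same ATP4B-DTR 3, at 540 CPM against 1822 and 3423. Fcgbp and Zg16, proteins of goblet cell mucus, stood at 68.9 and 19.8 CPM in ATP4B-DTR 3 and at 29.1 and 18.8 CPM in the double line 1. In the other 9 samples Fcgbp was between 0.555 and 14.99 CPM and Zg16 between 0.0356 and 2.12 CPM. Pdx1, a marker of antrum and duodenum, was at 7.08 CPM in ATP4B-DTR 3, 7.18 CPM in the double line 1 and 8.10 CPM in GIF-DTR 2, and between 0.0554 and 3.41 CPM in the other 8 samples. The antral hormone Gast was at 1.74 CPM (42 counts) in ATP4B-DTR 3, 1.94 CPM (41 counts) in GIF-DTR 1 and 1.10 CPM (28 counts) in GIF-DTR 2, and had 0 or 1 count in each of the other 8 samples. Of the other 4 markers of antrum and duodenum, Bpifb1 ran within GIF-DTR in the order of Pdx1 (71.9, 89.8 and 68.8 CPM) and was highest of its group in the double line 1 (154 CPM, against 116 and 92.9), but was lowest of its group in ATP4B-DTR 3 (99.95 CPM, against 385 and 155). Muc2 was at or under 0.943 CPM in all samples, and Apoa1 and Apoa4 were lower in all ATP4B-DTR and double line samples than in all control and GIF-DTR samples. A4gnt was lowest of its group in ATP4B-DTR 3 and in GIF-DTR 2 (61.7 CPM, against 96.9 and 79.1), and highest of its group in the double line 1.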
